A study of Sus scrofa with 12 samples.

Results

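The Tough group of this study is the set of Iberian pigs with the highest breeding values for the shear force of cooked loin, and the loins within it were not equally hard. The comparison made here stays inside that group. The 6 Tough libraries, of 12 libraries in all, were split by the shear force given in the sample labels: 3 loins above 9 kg/cm2 (Tough 1 at 10.63, Tough 2 at 9.45 and Tough 4 at 10.47) against 3 loins below 9 kg/cm2 (Tough 3 at 8.89, Tough 5 at 8.25 and Tough 6 at 7.32). No Tender library was used. The mean shear force was 10.2 ± 0.64 kg/cm2 above 9 and 8.15 ± 0.789 kg/cm2 below 9 (SD, n = 3 each), and Tough 2 and Tough 3, the pair on either side of the limit, lie close together. The estimated breeding values ran from 2.31 to 2.40 in the harder set and from 1.76 to 1.94 in the less hard set, so splitting by breeding value gives the same sets.

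All 6 animals were castrated male pigs of 1 purebred Iberian line, fattened outdoors on acorns and grass, and by the study's methods siblings were avoided. Each library came from the RNA of the *Longissimus dorsi* of 1 animal, the long muscle of the loin, frozen after slaughter, while shear force was read later on a cooked piece of the same muscle. The muscle carried no treatment. Each set is therefore 3 animals measured once, and no source used here names the fattening batch or sequencing lane of an animal, so neither can be told apart from shear force.

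Shear force is the force needed to cut through cooked muscle fibres and the connective tissue that wraps them. After slaughter, calpains, held in check by calpastatin, and lysosomal cathepsins cut the proteins of the sarcomere and its Z-disc, while collagen and its crosslinks give a background toughness that ageing hardly alters. Fat cells between the fibre bundles, the kind of fibre (slow oxidative or fast glycolytic) and the state of the muscle at slaughter are also known to bear on texture. The gene lists below follow these parts of the tissue.

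The values are the FPKM (fragments mapped to a transcript, scaled to its length and to the fragments mapped in the library) of the transcripts assembled in each library, summed per gene over the exons of the Sscrofa11.1 annotation. Of 28212 annotated genes, 13575 had a value in at least 1 Tough library and 10643 in all 6. The number of genes above 0.5 FPKM was 9263 ± 419 in the harder set and 9170 ± 401 in the less hard set (SD, n = 3 each). By a two-sided exact permutation test p was 0.80, where 0.10 is the smallest value that 3 against 3 can give. The read coverage that 1 FPKM is worth, which scales with depth, was 6.86 to 10.2, highest in Tough 6 (exact permutation p = 0.90 between sets), and the share of transcripts lying inside introns was 10.3% to 17.1%, highest in Tough 4 and Tough 6 (exact permutation p = 0.70). Muscle genes stood at the top of each library (*MYLPF*, a fast myosin light chain, at 7275 to 13682 FPKM), and 10 of 12 markers of other tissues were at 0 throughout, the exceptions *GFAP* and *CDH1* reaching 0.427 and 0.505 FPKM. Some abundant genes were listed at 0 where no transcript was assembled over them: creatine kinase *CKM* was at 0 in Tough 5 and Tough 6 and at 1241 to 3662 FPKM in the other 4, and *MYH1*, *MYH2*, *MYH4* and *ACTA1* were at 0 in all 6. Genes that muscle cannot lack are among them, so such zeros may be failed assemblies. Where a gene was tested, they entered the fits below as 0 FPKM. Of the 9380 genes tested, 9031 were above 0 in all 6 libraries. *CKM* is therefore among the genes counted below as higher in the harder loins.

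The sets did not stand apart as wholes. Correlations of log2(FPKM + 0.5) over 9380 genes ran from 0.909 to 0.945 between libraries of the same set and from 0.915 to 0.951 between libraries of different sets. The most alike pair was Tough 2 and Tough 3, 1 from each set, and the least alike was Tough 1 and Tough 2, both of the harder set. The first principal component (33.0% of the variance) set Tough 2 and Tough 3 against Tough 1 and Tough 4, and the second (25.2%) set Tough 6 apart from Tough 1 and Tough 3.

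Over all genes, 1 passed the test between the sets. Of 9380 genes with a mean above 0.5 FPKM, *CNTF* alone was called by limma (p up to 0.05, adjusted p up to 0.10, at least 1.5-fold), which is 0.0107% of the genes tested, and it was lower in the harder loins; it is named after its value was seen, as the only call. At an unadjusted p of at most 0.05, 126 genes (1.34%) were higher and 43 (0.458%) lower above 9 kg/cm2, and in 377 genes (4.02%) all 3 harder loins lay above all 3 less hard ones, against 84 (0.896%) where they lay below. With shear force as a continuous value limma called no gene (0% of 9380, smallest adjusted p 0.824), and robust limma called none either. At an unadjusted p of at most 0.05, 462 genes (4.93%) were higher and 60 (0.64%) lower with rising shear force. The excess of higher genes moved with the scaling of the libraries: the mean of log2(FPKM + 0.5) was higher in the harder loins in 5636 of 9380 genes (60.1%, and 50.1% after median-of-ratios scaling). Counts of higher and lower means below are on that log2 scale. The median log2 difference over all genes was 0.06, and after median-of-ratios scaling the split gave 95 genes higher and 82 lower, and the continuous fit 261 higher and 194 lower. All genes named in the rest of this section apart from *CNTF* had an adjusted p of 0.9997 in limma between the sets, and of 0.824 or more along shear force; their differences describe these 6 loins and did not pass the test. No gene with a symbol was listed at 0 in all loins of one set and at 1 FPKM or more in all loins of the other (0 genes in each direction).

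*CNTF*, the one gene called, encodes ciliary neurotrophic factor, a cytokine that keeps motor neurons alive. It lies on the minus strand of chromosome 2 at 12492777 to 12495401, just downstream of *ZFP91* (12495548 to 12532281, same strand), which encodes a zinc finger ubiquitin ligase. Its level was 16.6 FPKM in Tough 6, 16.1 in Tough 5 and 21.3 in Tough 3, against 0.436 in Tough 2, 2.00 in Tough 4 and 0.781 in Tough 1. The sets did not overlap, and the log2 difference was -3.67 ± 0.36 (SE; limma adjusted p = 0.082). The gene kept its direction but was no longer called with median-of-ratios scaling, quantile normalization or a pseudocount of 0.1 FPKM (smallest limma adjusted p over all genes 0.184, 0.222 and 0.245). *ZFP91* itself was alike in both sets, at 15.3, 14.6 and 19.4 FPKM in Tough 6, 5 and 3 and 26.4, 14.6 and 15.6 FPKM in Tough 2, 4 and 1 (log2 difference 0.15 ± 0.28).

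The assembled transcripts show where the *CNTF* value came from. In each less hard loin a single transcript ran from *ZFP91* through the unannotated interval between the genes and on into the *CNTF* exons, at 16.9 FPKM in Tough 6, 16.1 in Tough 5 and 21.3 in Tough 3. In Tough 1 and Tough 2 *ZFP91* ended before or within that interval (17.2 and 26.9 FPKM), and *CNTF* exons carried a separate transcript of 0.781 and 0.689 FPKM. Tough 4 had both forms, a *ZFP91* transcript of 14.1 FPKM and a joined one of 2.00 FPKM. A joined transcript of this pair of genes is annotated in the human genome, and the pig annotation used here has none. The difference called is thus one between a joined and a separate assembly of neighbouring genes, and whether the RNA of the loins or the assembly of the reads differed was not tested. Under a rule that gives each transcript only to the gene holding at least 50% of its bases, *CNTF* was at 0 in 5 of the 6 libraries and was not tested.

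Because the call rests on them, the interval and the splice junction are given from the Sscrofa11.1 sequence, minus strand, 5′ to 3′. The interval is the 146 bases at chr2:12495402-12495547, all in lower case. The junction is the last 15 bases of the upstream *CNTF* exon (lower case) joined to the first 15 of the downstream exon (capitals) across an intron of 1258 bases at chr2:12493657-12494914 that begins with GT and ends with AG. That intron was spliced out in the joined transcripts.
Interval between the genes: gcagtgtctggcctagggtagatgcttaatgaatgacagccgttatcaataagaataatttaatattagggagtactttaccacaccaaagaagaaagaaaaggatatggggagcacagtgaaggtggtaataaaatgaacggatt
Junction of the CNTF exons: cttatggaagcttatGTGAAGCATCAAGGT

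**Figure D1:**
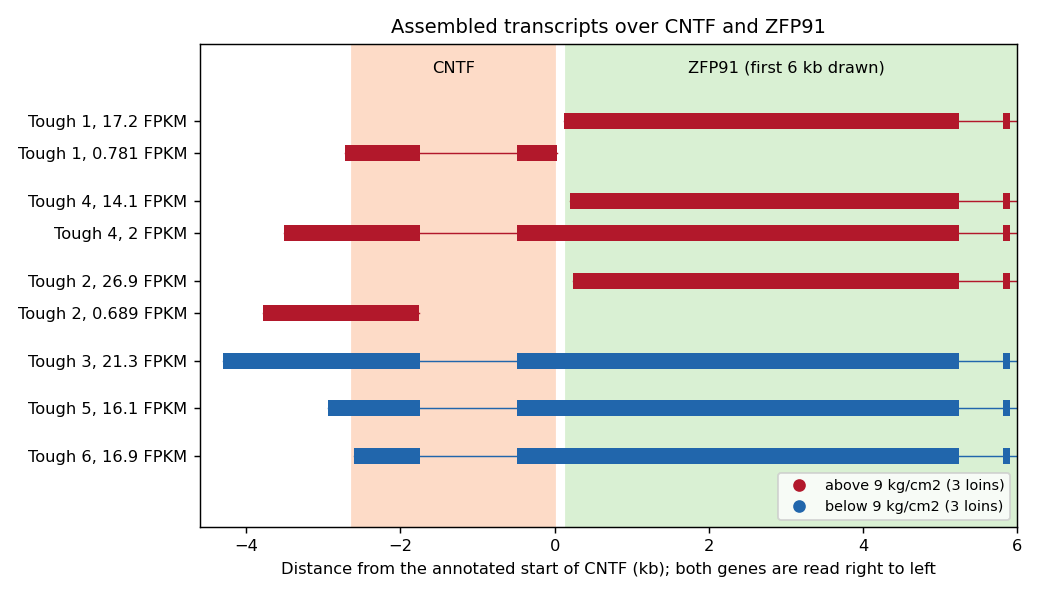
Assembled transcripts over *CNTF* (shaded left) and the near end of *ZFP91* (shaded right) in each Tough library, by distance in kb from the annotated start of *CNTF*; thick bars are exons, thin lines introns, and each transcript's FPKM stands at the left. In the 3 loins below 9 kg/cm2 (blue) the only transcript over *CNTF* crosses into *ZFP91*, at 16.1 to 21.3 FPKM, and in the loins above 9 kg/cm2 (red) such a transcript is seen only in Tough 4, at 2.00 FPKM.

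Beside *CNTF*, the 10 genes with the lowest p on each side were taken, and none of the 20 overlapped between the sets, which choosing by p favours. Those higher in the harder loins include *SLC25A11*, the mitochondrial carrier that exchanges oxoglutarate for malate. It had 61.2, 102 and 86.5 FPKM in Tough 1, 2 and 4 and 36.4, 30.9 and 24.2 FPKM in Tough 3, 5 and 6, a log2 difference of 1.42 ± 0.27 (chromosome 12, 51970794 to 51973668). *CBFA2T3*, a transcriptional corepressor, had 10.4, 7.55 and 6.25 FPKM against 3.96, 3.44 and 3.72 FPKM in the same order of animals (log2 difference 1.00 ± 0.24). Every harder loin lay well above the narrow range of the less hard ones for both genes.

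*CST6* encodes cystatin E/M, a secreted inhibitor of cysteine proteases that include cathepsins. Its level was 14.9 FPKM in Tough 1, 17.8 in Tough 2 and 11.8 in Tough 4 against 7.18 in Tough 3, 10.04 in Tough 5 and 7.23 in Tough 6 (log2 difference 0.82 ± 0.24). *KCNC4*, a voltage-gated potassium channel, had 1.63, 1.11 and 1.93 FPKM in Tough 1, 2 and 4 and 0.626, 0.509 and 0.855 FPKM in Tough 3, 5 and 6 (0.81 ± 0.24). *DCAKD* was of like level, at 1.98, 1.52 and 2.50 against 1.07, 0.954 and 0.647 FPKM (0.84 ± 0.24). The remaining 5 were *EIF4EBP3*, a repressor of translation initiation, with 5.05, 4.34 and 3.05 against 0.782, 1.29 and 1.33 FPKM, *GET4*, which helps to insert tail-anchored membrane proteins, with 1.61 ± 0.33, *MAGEF1* with 0.95 ± 0.24, *RNF166* with 0.63 ± 0.19 and *C1H18orf25* with 0.92 ± 0.28.

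Among the 10 lower in the harder loins, *ZNF385A*, a zinc finger protein that binds RNA, had 7.80, 13.2 and 2.50 FPKM in Tough 6, 5 and 3 and 1.39, 1.78 and 1.24 FPKM in Tough 2, 4 and 1 (log2 difference -1.84 ± 0.50). *EEF1A2*, the translation elongation factor of mature muscle, had 2183, 1914 and 2256 FPKM in Tough 6, 5 and 3 against 807, 1009 and 1589 FPKM in Tough 2, 4 and 1 (-0.96 ± 0.29). The less hard loins were close to each other for *EEF1A2* and spread widely for *ZNF385A*, with Tough 3 nearest to the harder ones.

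*SRL* encodes sarcalumenin, a glycoprotein that binds calcium in the sarcoplasmic reticulum, and *SUN1* a protein of the inner nuclear membrane. *SRL* had 87.5, 95.5 and 72.2 FPKM in Tough 6, 5 and 3 and 13.2, 43.8 and 14.1 FPKM in Tough 2, 4 and 1 (-2.04 ± 0.44). *SUN1* had 13.1, 16.4 and 15.8 FPKM against 2.00, 2.14 and 6.69 FPKM in the same order (-2.10 ± 0.40). *PPP1R3A*, which brings protein phosphatase 1 to glycogen in muscle, had a log2 difference of -0.99 ± 0.32, *IST1* of the ESCRT-III membrane machinery -1.02 ± 0.22, and *DUSP27* -0.75 ± 0.22. The kinase genes *DYRK2* and *CAMK2G* had -0.71 ± 0.22 and -0.65 ± 0.21, and *ERRFI1*, a feedback inhibitor of the EGF receptor, -0.64 ± 0.19.

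**Figure D2:**
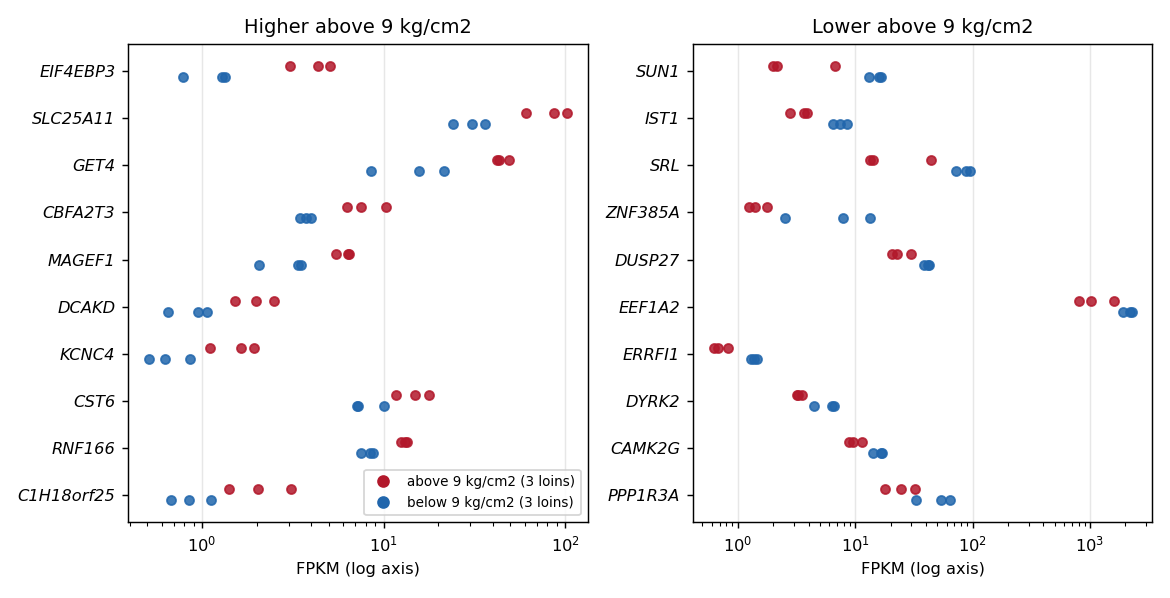
FPKM (log axis) of the 10 genes with the lowest p on each side, 1 point per loin, red for loins above 9 kg/cm2 and blue for loins below. The colours do not overlap in any of the 20 genes, from *ERRFI1* near 1 FPKM to *EEF1A2* at 807 to 2256 FPKM.

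How much of a gene was assembled moved with many of these differences. Of *SRL*, 43% of the exon bases were assembled in Tough 3, 4, 5 and 6 and 16% in Tough 1 and Tough 2. Of *IST1*, 77% to 80% were assembled below 9 kg/cm2 and 37% to 44% above. *GET4* and *SUN1* are neighbours on chromosome 3 (*SUN1* at 485980 to 532974, *GET4* at 533525 to 547527, both on the plus strand). No *GET4* value in the less hard loins came from a transcript lying mostly in *GET4*, while 78% to 100% of it did in the harder loins. For *EIF4EBP3* the share was 100% in Tough 1 and Tough 2 and 0% in the other 4.

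Levels were therefore also taken over only those exon bases that had a transcript in all 6 libraries, a measure added after the values were seen. Over these bases 19 of the 20 genes kept their direction, 7 of the 10 higher genes and 3 of the 10 lower ones kept a p of at most 0.05, and in 8 the fold change moved by more than 1.5 times. *SLC25A11* (1.39 ± 0.27), *CBFA2T3* (1.01 ± 0.26), *CST6* (0.88 ± 0.25), *ZNF385A* (-1.85 ± 0.46) and *EEF1A2* (-0.94 ± 0.33) hardly moved. Of the *EEF1A2* value, 100%, 53% and 100% came from transcripts lying mostly in that gene in Tough 6, 5 and 3. In Tough 2, 4 and 1 that share was 0%, 0% and 48%, and by the rule of 50% of the bases the difference was -8.21 ± 2.86. The measure over shared bases uses the same transcripts, so it cannot show whether that share matters. *MAGEF1* (0.01 ± 0.34), *RNF166* (0.02 ± 0.29), *C1H18orf25* (-0.06 ± 0.33), *IST1* (-0.08 ± 0.26), *ERRFI1* (-0.05 ± 0.26), *CAMK2G* (-0.11 ± 0.22) and *PPP1R3A* (-0.23 ± 0.46) lost most of their difference, and *SRL* went to -0.67 ± 0.23 and *SUN1* to -0.46 ± 0.37. *CNTF* kept its call at -3.57.

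**Figure D3:**
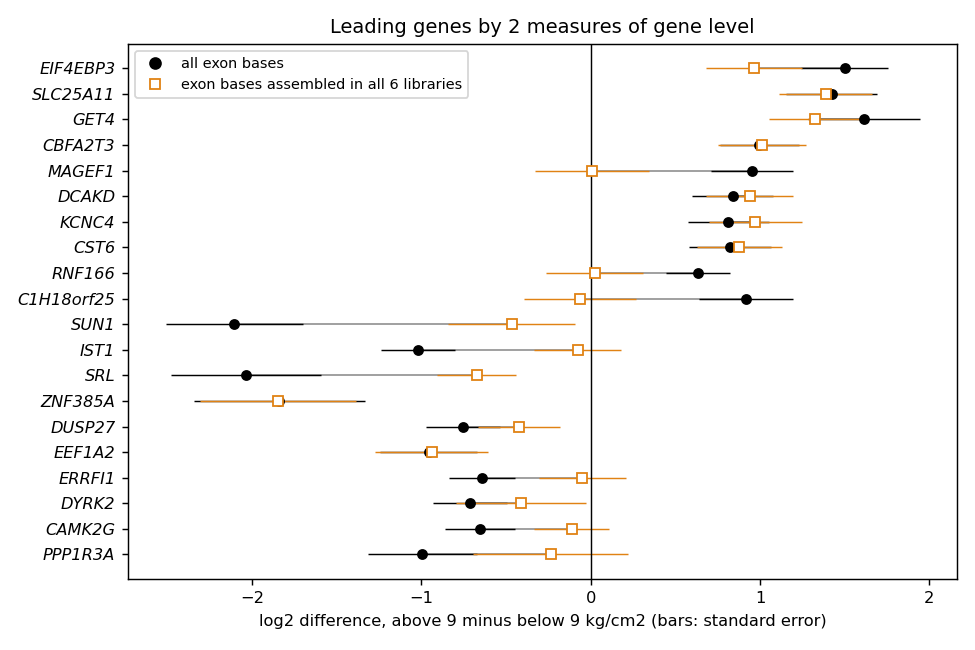
Log2 difference between the loins above and below 9 kg/cm2 for the 20 leading genes, from all exon bases (black circles) and from the exon bases assembled in all 6 libraries (open squares), with the standard error as bars. The 2 measures coincide for *SLC25A11*, *CBFA2T3*, *ZNF385A* and *EEF1A2*, and the second lies near 0 for *MAGEF1*, *RNF166*, *C1H18orf25*, *IST1* and *ERRFI1*.

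Of the 42 gene lists, fat cell genes had the lowest median difference. Of 15 genes tested, the median log2 difference was -0.40 beside 0.06 over all genes, and 4 were lower and 1 higher in the harder loins at a p of at most 0.05. *ADIPOQ*, the adipocyte hormone adiponectin (chromosome 13, 124633906 to 124646237), had 3.53, 8.12 and 5.77 FPKM in Tough 6, 5 and 3 and 1.06, 2.42 and 3.24 FPKM in Tough 2, 4 and 1, without overlap (log2 difference -1.22 ± 0.40). *PLIN1*, the coat protein of the fat droplet, had 2.58, 5.64 and 3.38 FPKM against 0.689, 2.29 and 2.01 FPKM (-1.05 ± 0.39). Both were highest in Tough 5 and lowest in Tough 2, and the gap between the sets was narrow, since Tough 6 stood only just above the harder loins. All of the *PLIN1* value came from transcripts lying mostly in that gene, while 0% of the *ADIPOQ* value did in any of the 6 loins.

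*CIDEA*, a droplet protein that promotes fat storage, had 3.53, 3.98 and 1.66 FPKM in Tough 6, 5 and 3 and 0.907, 0.916 and 2.34 FPKM in Tough 2, 4 and 1 (-0.93 ± 0.38). *TUSC5*, involved in insulin-driven glucose uptake of fat cells, had 0.810, 2.79 and 1.81 against 0.315, 0.650 and 0.846 FPKM (-0.99 ± 0.37). For each of the pair, 1 library crossed into the range of the other set, and by the rule of 50% of the bases the differences were 1.16 and 0.75, of opposite sign. *PLIN1* and *CIDEA* were named after their values were seen, because the count was small. The list leaned on Tough 2: without that loin its median was -0.04, with 2 genes lower and 1 higher at that p.

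*LIPE*, hormone-sensitive lipase, which fat cells and muscle fibres both use to break down stored fat, went the other way. It had 21.5, 25.05 and 27.3 FPKM in Tough 1, 2 and 4 and 23.5, 9.42 and 9.63 FPKM in Tough 3, 5 and 6 (0.90 ± 0.36), so Tough 3 sat with the harder loins. The other fat genes did not reach that p: *FABP4*, the fatty acid carrier of fat cells, had 14.1, 23.3 and 21.9 FPKM in Tough 6, 5 and 3 and 18.01, 12.1 and 10.3 FPKM in Tough 2, 4 and 1 (-0.55 ± 0.30), and *FASN*, fatty acid synthase, had a log2 difference of -0.77 ± 0.41. Of 15 genes of fatty acid synthesis none reached it, with a median of -0.002. In whole muscle, fewer fat cells and less RNA of these genes per fat cell cannot be told apart, here or for any other cell type below. Along shear force the fat cell list had a median slope of -0.004 per kg/cm2, with *LIPE* and *G0S2* higher and none lower, and Tough 6, the least hard loin, stood below the group mean (list median -0.22).

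**Figure D4:**
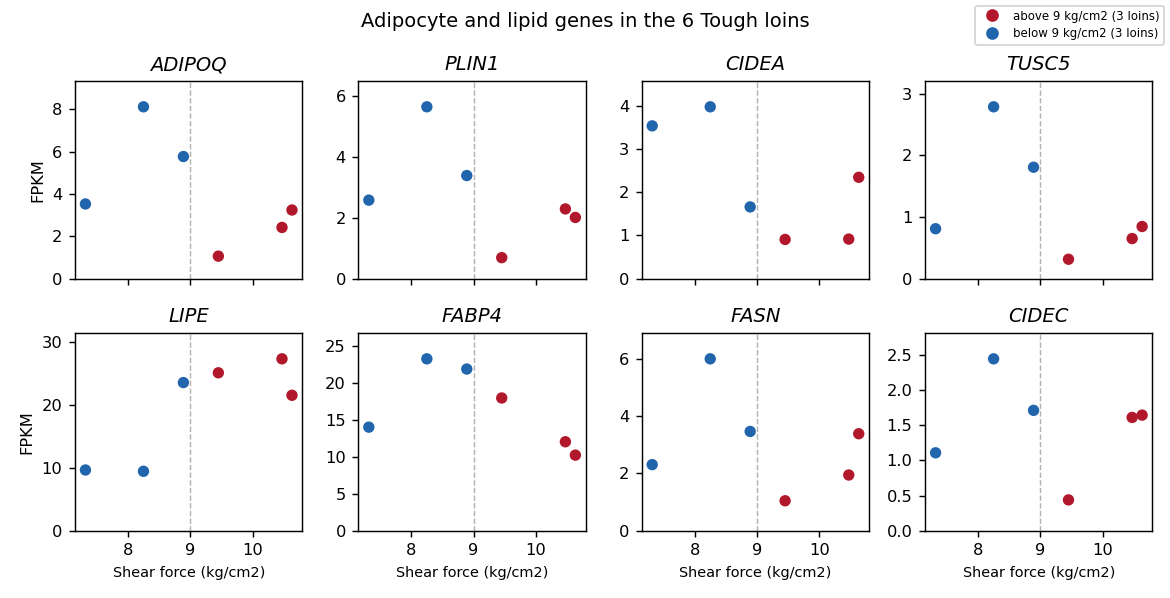
FPKM of 8 fat cell and lipid genes against shear force in kg/cm2, 1 point per loin, red above and blue below 9 kg/cm2 (dashed line). *ADIPOQ* and *PLIN1* are lower in all 3 harder loins than in any less hard one (1.06 to 3.24 against 3.53 to 8.12 FPKM for *ADIPOQ*), and *LIPE* is lowest in Tough 5 and Tough 6, at 9.42 and 9.63 FPKM.

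The protease lists of meat ageing held few genes at a p of at most 0.05 between the sets. Of 13 cathepsin and inhibitor genes, 11 had a higher mean in the harder loins, the median log2 difference was 0.33, and *CTSB* and *CST6* reached a p of at most 0.05. Over all genes 60.1% had a higher mean, and 1.34% were higher at that p. After median-of-ratios scaling 1 of the 13 reached it, with a list median of 0.26. *CTSB*, a cysteine cathepsin of the lysosome, had 48.5, 34.8 and 42.2 FPKM in Tough 1, 2 and 4 and 32.8, 19.3 and 29.1 FPKM in Tough 3, 5 and 6, without overlap (0.64 ± 0.26). By the rule of 50% of the bases its difference was 0.33 ± 0.21. *CTSA*, a lysosomal carboxypeptidase, had a slope of 0.24 ± 0.08 log2 units per kg/cm2, with 12.9 FPKM in Tough 6 and 27.3 in Tough 1. A cathepsin and a cathepsin inhibitor thus both had higher values in the harder set. The median of the list was 0.10 without Tough 1 and 0.57 without Tough 2.

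Of the 10 calpain genes only *CAPN7*, an atypical calpain, reached that p, at 2.61 and 3.47 FPKM in Tough 5 and Tough 3 and 0 in the other 4 (-1.87 ± 0.70); a gene at 0 in Tough 6 as well as in the harder loins does not separate the sets. The 31 proteasome subunits had a median of 0.09 and none at a p of at most 0.05, and the 14 genes of caspases and mitochondrial apoptosis had a median of 0.11 and none. Among 22 autophagy genes *GABARAP*, which coats autophagosomes, alone reached it, with 107, 57.7 and 44.4 FPKM in Tough 6, 5 and 3 and 135, 152 and 88.8 FPKM in Tough 2, 4 and 1 (0.91 ± 0.37). Of the *GABARAP* value, 0% came from transcripts lying mostly in that gene in Tough 3 and Tough 5, and 100% in Tough 1, 2, 4 and 6. The 17 atrophy ligase and FOXO genes had 10 higher and 7 lower means, close to the share over all genes, and none at that p between the sets.

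The correlation with shear force was tested for 20 candidate genes of tenderness, among them calpains, calpastatin, cathepsins, collagens and *MSTN*. Over the 6 animals and 40 relations (Pearson and Spearman for each gene), none had an adjusted p of 0.05 or less in the exact permutation test over 720 pairings. *CTSB* had r = 0.79 (exact p = 0.0556) and rho = 0.94 (exact p = 0.0167), with an adjusted p of 0.583 for both. *MSTN*, the secreted brake on muscle growth, had r = -0.86 (exact p = 0.0292) and rho = -0.83 (exact p = 0.0583), also with an adjusted p of 0.583.

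Without Tough 1 and Tough 6, the animals farthest from the median shear force, *CTSB* kept r = 0.90 over 4 animals and *MSTN* had r = -0.50. The level of *MSTN* was 3.34 FPKM in Tough 6, 2.36 in Tough 5, 1.95 in Tough 3, 2.58 in Tough 2, 1.79 in Tough 4 and 1.55 in Tough 1, so the sets overlapped, and the value came from transcripts lying mostly in *MSTN* only in Tough 1. For calpain 1, calpain 2 and calpastatin r was 0.39, -0.57 and -0.15 (exact p = 0.454, 0.249 and 0.761; *CAPN1*, *CAPN2*, *CAST*).

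Connective tissue genes did not separate the sets, and some were higher along shear force at an unadjusted p, fewer of them after another scaling. All 8 fibrillar and associated collagens tested had a higher mean in the harder loins, with a median log2 difference of 0.20, and none reached a p of at most 0.05 in either fit. Of 21 proteoglycans and matrix glycoproteins, 20 had a higher mean (median 0.30), none reached that p between the sets, and 6 did along shear force: *DCN*, *BGN*, *THBS4*, *FBLN5*, *ELN* and *MFAP4*. After median-of-ratios scaling 3 of the 21 did. A higher mean in the harder loins is to be read against the 60.1% of all genes that had one. *THBS4*, a thrombospondin of tendon and muscle matrix, had 8.26 FPKM in Tough 6, 17.9 in Tough 5, 10.99 in Tough 3, 10.5 in Tough 2, 30.7 in Tough 4 and 32.9 in Tough 1, a slope of 0.51 ± 0.16 log2 units per kg/cm2.

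*BGN*, the small proteoglycan biglycan, had 4.74, 8.12, 6.36, 5.23, 14.4 and 14.6 FPKM in the same order (slope 0.42 ± 0.13), and *DCN*, decorin, had a slope of 0.48 ± 0.18. *ELN*, elastin, had 0.38 ± 0.13. Tough 1 and Tough 4 were the highest loins for *THBS4*, *BGN* and *DCN*, while Tough 2, also of the harder set, lay within the less hard loins.

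Enzymes that process collagen gave a few genes as well. Of 19 such genes, *LOXL1*, a lysyl oxidase that starts crosslinks, *FKBP10* and *BMP1* reached a p of at most 0.05 along shear force, with *LOXL1* at 1.05, 1.74, 1.12, 1.09, 2.40 and 3.46 FPKM from Tough 6 to Tough 1 (slope 0.32 ± 0.13) and *FKBP10* at a slope of 0.26 ± 0.10, and after median-of-ratios scaling 1 of the 19 did. *COL6A3*, a chain of collagen VI, had a slope of 0.25 ± 0.10 and *TIMP1*, an inhibitor of matrix metalloproteinases, 0.28 ± 0.11. Between the sets the proteoglycan list had a median of 0.64 and 7 genes higher at that p without Tough 2, and 0.04 and none without Tough 6. Without Tough 6 none of the collagen, collagen processing, basement membrane, proteoglycan and metalloproteinase genes reached that p along shear force, and without Tough 1 a single one did. Markers of other cells of the connective tissue moved beside them: 15 of 18 endothelial genes and 16 of 17 complement and macrophage genes had a higher mean in the harder loins, with medians of 0.15 and 0.31 and both lists highest in Tough 1, and their part in the matrix values was not tested.

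The fibre type lists gave few differences among the genes that could be tested. The fast myosin heavy chains *MYH1*, *MYH2* and *MYH4* had no value in any Tough library and were not tested. *MYLK4*, a kinase of the myosin light chain kinase family, stood out within the fast fibre list with 0.936, 1.12, 0.519 and 1.28 FPKM in Tough 6, 5, 3 and 2 and 8.85 and 8.84 FPKM in Tough 4 and Tough 1 (log2 difference 2.01 ± 0.62, slope 0.91 ± 0.24 per kg/cm2). The sets did not overlap, but Tough 2 was close to the less hard loins. Without Tough 2 the log2 difference of MYLK4 was 2.81, which leaving out that loin favours. The gene was then among 15 called, where 1 was called with all loins. The other 14 fast fibre genes tested did not reach a p of at most 0.05, and the median of the list was 0.02 (-0.06 after median-of-ratios scaling).

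In the slow fibre list 14 genes were tested, and their median was 0.24. *MB*, *ANKRD2* and *FHL2* of that list were not tested. *CASQ2*, the calsequestrin of slow and cardiac muscle, which stores calcium, had 0.818, 2.62 and 2.82 FPKM in Tough 6, 5 and 3 and 4.78, 6.15 and 2.77 FPKM in Tough 2, 4 and 1 (1.02 ± 0.42). Along shear force *MYL3*, a slow myosin light chain, had 449, 770, 615, 630, 913 and 1179 FPKM from Tough 6 to Tough 1 (slope 0.32 ± 0.10), *MYOZ2*, a Z-disc protein of slow fibres, a slope of 0.27 ± 0.08, and *CSRP3*, a stretch sensor, 0.48 ± 0.18. Tough 6 had the lowest value of all 6 loins in each of these genes, and without it no slow fibre gene was higher along shear force at that p and 1 was lower.

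Calcium handling showed genes in both directions. *SLN*, sarcolipin, which uncouples the calcium pump of the sarcoplasmic reticulum, had 1211, 848, 988, 1132, 500 and 310 FPKM from Tough 6 to Tough 1 (slope -0.49 ± 0.15), with the 2 hardest loins lowest. *RYR1*, the calcium release channel, had 352, 352, 329, 376, 171 and 190 FPKM in the same order (slope -0.32 ± 0.11). Of the 24 calcium handling genes, 3 were lower and 2 higher along shear force at a p of at most 0.05, the latter *CASQ2* and *HRC*, a histidine-rich protein that binds calcium. *ACTN2*, the Z-disc actinin, had a slope of 0.33 ± 0.12, and in its list of 21 Z-disc, titin and stretch-responsive genes 8 had a higher and 13 a lower mean in the harder loins. The share of the *ACTN2* value from transcripts lying mostly in that gene was 0% in Tough 3, 5 and 6. It was 32% in Tough 2 and 100% in Tough 1 and Tough 4. For *SLN* that share was 0.18% in Tough 1 and 100% in Tough 2, 3, 4, 5 and 6.

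The lists of energy metabolism gave no gene at a p of at most 0.05 between the sets outside glycolysis, and some along shear force. *SLC25A11*, given above, reached that p between the sets and is in none of these lists. Of 45 genes of oxidative phosphorylation, 37 had a higher mean in the harder loins (median 0.24), none reached a p of at most 0.05 between the sets, and 9 were higher and none lower along shear force, 3 of 45 after median-of-ratios scaling. Among all genes 60.1% had a higher mean. *ATP5L*, a subunit of ATP synthase, had 16.2, 25.2, 27.0, 21.2, 33.5 and 46.6 FPKM from Tough 6 to Tough 1 (slope 0.35 ± 0.10), *ATP5G1* a slope of 0.31 ± 0.10 and *NDUFS6*, of complex I, 0.25 ± 0.08. Without Tough 6, 5 of the 45 were higher and none lower at that p, and without Tough 1 none was higher and 1 was lower.

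Of 34 genes of fatty acid uptake and oxidation, 3 were higher along shear force. *PLIN5*, which ties fat droplets to mitochondria, had 3.08 FPKM in Tough 6 and 13.8 and 13.2 in Tough 4 and Tough 1 (slope 0.51 ± 0.13), *ANGPTL4*, an inhibitor of lipoprotein lipase, had 0.57 ± 0.18 and *ETFB*, an electron carrier of beta-oxidation, 0.35 ± 0.13. Among 29 genes of glycolysis and glycogen, *PGAM2*, the muscle phosphoglycerate mutase, had 814, 614 and 786 FPKM in Tough 1, 2 and 4 and 185, 583 and 393 FPKM in Tough 3, 5 and 6 (1.07 ± 0.40), and *PKM*, pyruvate kinase, 879, 494 and 558 against 377, 360 and 371 FPKM (0.76 ± 0.26). The sets of both genes were apart, for *PGAM2* by little. In Tough 3 and Tough 6, 0% of the *PGAM2* value came from transcripts lying mostly in that gene. Over the exon bases assembled in all 6 libraries *PGAM2* had 1.44 ± 0.33. Over such bases *PKM* overlapped between the sets, with Tough 2 at 817 FPKM and Tough 3 at 907 FPKM (0.59 ± 0.35). *PPP1R3A*, given above, is the remaining gene of the list at a p of at most 0.05 and was lower in the harder loins (-0.99), and the median of the list was 0.08. Of 26 genes of the citric acid cycle and pyruvate dehydrogenase, 19 had a higher mean (median 0.11), none reached that p between the sets and 2 were higher along shear force, and after median-of-ratios scaling 0 were higher and 1 was lower. Tough 4, the second hardest loin, lay low in these lists, at -0.26 log2 units for glycolysis and -0.30 for the citric acid cycle.

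Ribosomal genes had mostly higher means in the harder loins, as did 60.1% of all genes. Of 51 genes of the mitochondrial ribosome, 47 had a higher mean, with a median of 0.22, and 4 reached a p of at most 0.05 between the sets, against 8 along shear force, none lower. After median-of-ratios scaling these were 3 and 1, with a median of 0.15. *MRPL27* had 37.3, 26.5 and 33.6 FPKM in Tough 1, 2 and 4 and 24.2, 22.4 and 17.8 FPKM in Tough 3, 5 and 6 (0.59 ± 0.23), *MRPL9* a log2 difference of 0.82 ± 0.28 and *MRPS34* a slope of 0.32 ± 0.10. Transcripts lying mostly in *MRPL9* gave 0% of its value in Tough 1, 3 and 5. They gave 49% in Tough 6 and 100% in Tough 2 and Tough 4. Of 59 cytosolic ribosomal genes, 46 had a higher mean (median 0.16), 3 reached that p between the sets and 5 along shear force, and after median-of-ratios scaling 1 and 1, with a median of 0.09. *RPL36* had 301, 496 and 602 FPKM against 220, 228 and 254 FPKM (0.94 ± 0.29) and *RPL3* 0.64 ± 0.27.

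Hormone and stress responses showed single genes, not lists. *DDIT4*, an mTOR inhibitor that glucocorticoids and low oxygen raise, had 24.4, 31.4 and 20.6 FPKM in Tough 1, 2 and 4 and 12.9, 17.6 and 15.1 FPKM in Tough 3, 5 and 6 (0.72 ± 0.24). *ZBTB16*, another gene that glucocorticoids raise, had 19.9, 25.9 and 16.1 against 9.35, 13.5 and 12.3 FPKM (0.78 ± 0.25), and 0.36 over the exon bases assembled in all 6 libraries. Neither gene overlapped between the sets, yet the 24 genes of their list had a median of -0.001.

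The 25 heat shock genes and the 28 immediate early genes, which respond within minutes to stress, gave none between the sets at a p of at most 0.05. Animals of the same set lay far apart: relative to each gene's mean over the 6 loins, the heat shock list had a median of 0.65 log2 units in Tough 2 and 0.60 in Tough 3, and of -0.36 in Tough 4 and -0.57 in Tough 6. The immediate early list stood at 0.64 in Tough 2 and -0.53 in Tough 4, both of the harder set.

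Several growth and immune genes were highest in Tough 1, which was also the highest loin over all genes tested (median deviation 0.15 log2 units). *MYOD1*, the myogenic transcription factor, had 10.9 FPKM in Tough 1, 4.42 in Tough 2, 3.66 in Tough 4, and 3.16, 3.15 and 1.60 in Tough 3, 5 and 6 (1.02 ± 0.42), and *ID3*, an inhibitor of such factors, had 15.9 FPKM in Tough 1 and 6.09 to 8.29 in the others (slope 0.28 ± 0.11). Transcripts lying mostly in *MYOD1* gave 0% of its value in Tough 5 and Tough 6 and 100% in Tough 1, 2, 3 and 4. *FSTL1*, a secreted glycoprotein related to follistatin, had a slope of 0.35 ± 0.13. Of 27 genes of antigen processing and the interferon response, 26 had a higher mean in the harder loins, with a median of 0.50 (the highest of the 42 lists), and none reached a p of at most 0.05 between the sets. Among all genes 60.1% had a higher mean.

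The list of antigen and interferon genes stood at 1.03 log2 units in Tough 1, at -0.10 in Tough 2 and -0.20 in Tough 4, and the median difference without Tough 1 was 0.06. Along shear force 1 of them, *PSME2* of the immunoproteasome, was higher (0.28 ± 0.11), as was 1 of the complement and macrophage list, *TYROBP*, a signalling adaptor of myeloid cells (0.40 ± 0.15). Of the smooth muscle list *TAGLN* was higher along shear force (0.32 ± 0.13). The beta globin gene *HBB*, from red blood cells, had 161, 137 and 184 FPKM in Tough 1, 2 and 4 and 105, 127 and 110 FPKM in Tough 3, 5 and 6 (slope 0.20 ± 0.09), without overlap between the sets, and the part of blood in the other differences was not tested. After median-of-ratios scaling no antigen, smooth muscle or red blood cell gene was higher along shear force at a p of at most 0.05. Of the complement and macrophage list 1 was.

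Along shear force the genes with the lowest p on the higher side were, with *C1H18orf25* and *DCAKD* from the split, 3 others that no list above holds. *IAH1*, an esterase of the isoamyl acetate type, had 4.69, 6.397, 12.9, 8.72, 19.5 and 21.1 FPKM from Tough 6 to Tough 1 (slope 0.61 ± 0.11 log2 units per kg/cm2). Of that value, 93% to 100% came from transcripts lying mostly in *IAH1* in Tough 1, 3 and 4, and 0% in Tough 2, 5 and 6. Of its exon bases, 59% to 66% were assembled in Tough 1, 3 and 4 and 98% to 99% in Tough 2, 5 and 6. *HCFC1R1*, a regulator of the cell cycle factor HCFC1, had 6.496, 9.52, 10.8, 14.5, 15.9 and 19.98 FPKM in the same order, higher at each step (0.43 ± 0.08). *TMCO1*, a calcium channel of the endoplasmic reticulum, had 2.08, 2.17, 4.68, 3.45, 6.997 and 6.47 FPKM (0.48 ± 0.10). *HCFC1R1* kept its slope over the exon bases assembled in all 6 libraries (0.42). For *TMCO1* 100% of the exon bases were assembled in all 6, so that measure repeats the first by construction. Of the *TMCO1* value, 100% came from transcripts lying mostly in that gene in Tough 1 and Tough 4. In Tough 2, 3, 5 and 6 that share was 0%.

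On the lower side, with *IST1* and *ZNF385A* from the split, stood 3 others. *OTUD1*, a deubiquitinase, had 17.3, 13.2, 12.1, 18.5, 5.59 and 3.12 FPKM in that order (slope -0.59 ± 0.18), *HECA* 10.6, 8.25, 7.65, 9.98, 4.48 and 4.20 FPKM (-0.35 ± 0.11), and *ING2*, a reader of histone methylation, had a slope of -0.30 ± 0.09. Each was lowest in the 2 hardest loins, and *OTUD1* and *HECA* were high in Tough 2. Over the shared exon bases *OTUD1* had a slope of -0.28 and *HECA* of -0.35.

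The count of genes along shear force depended on the animals at the ends of the scale. Of 42 gene lists, which share some members, 26 had their lowest median level in Tough 6, the least hard loin, and 24 their highest in Tough 1, the hardest. The 9380 genes as a whole had the same ends, with a median of -0.18 log2 units in Tough 6 and 0.15 in Tough 1. Without Tough 6 the genes at a p of at most 0.05 along shear force were 193 higher and 114 lower, and without Tough 1 they were 167 and 77. Without both, over the 4 loins from 8.25 to 10.47 kg/cm2, they were 111 and 189, with the lower ones in the majority.

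**Figure D5:**
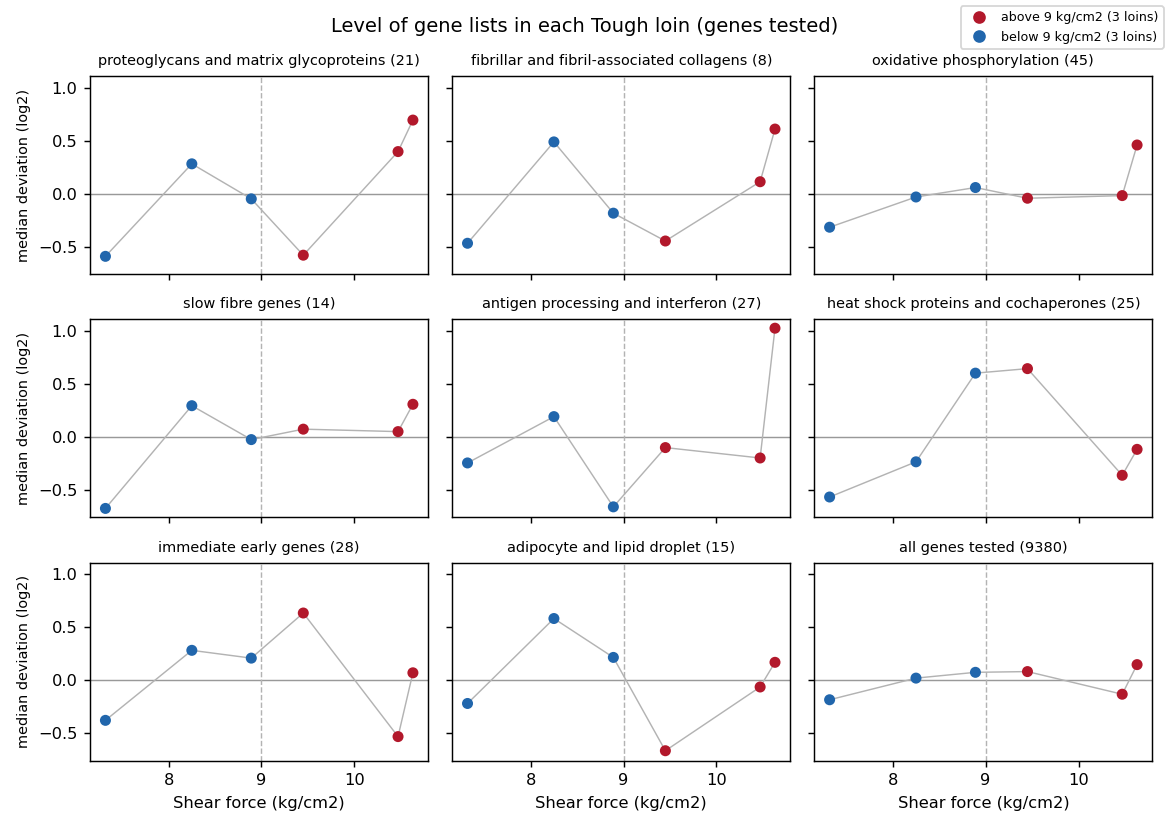
Median deviation of a list's genes from each gene's mean over the 6 loins, in log2(FPKM + 0.5), against shear force in kg/cm2, with the number of genes tested in brackets, red above and blue below 9 kg/cm2. Matrix, collagen, slow fibre and oxidative lists are lowest or near lowest in Tough 6 and highest in Tough 1 (proteoglycans -0.59 and 0.69), and heat shock genes are highest in Tough 2 and Tough 3, the pair on either side of 9 kg/cm2.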

How the data were processed

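After adapter trimming the authors aligned reads to Sscrofa11.1 using TopHat2 2.1.0, and each library was assembled on its own in Cufflinks 2.2.1 (versions from the submitters' processing notes). Each deposited file holds the exons of the transcripts with their FPKM and coverage, and a whole-number Cufflinks score, which the authors deposited in the score column and which was not used. No read counts were given, so no counting error was derived.

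Gene FPKM is the sum, over transcripts on the gene's strand or of unknown strand, of FPKM times overlap with the gene's exons, over its exonic length (NCBI Annotation Release 106). Genes with a mean above 0.5 FPKM over the 6 Tough libraries were fitted as log2(FPKM + 0.5) in limma 3.58.1 (R 4.3.3, eBayes with a trend) with the set (above or below 9 kg/cm2), or shear force, as the only term and Benjamini-Hochberg adjustment. Fold changes are on that scale and understate low genes. Each library is 1 animal. In simulated data of 9380 genes the split called 38 of 100 genes changed by a log2 of 1 and 94 of 100 changed by 2, with 26 false calls.

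Named genes are the 10 (split) or 5 (slope) with the lowest p on each side that have a symbol, a mean of at least 1 FPKM, no zero and p of at most 0.05 also by the 50% rule, up to 3 members of each list at that p, and the 20 candidates. Members and lists were chosen with earlier results of these data known, so none is independent evidence. Single library values were compared over the 20 ways to form sets of 3. Other steps used Python, numpy, pandas and scipy. Some items are not reported here. Alternatives are given in the closing section.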

Additional observations from a re-analysis of the deposited data

Results flagged for a closer look

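Over the 6 Tough loins taken as a group, 80 values (75 genes and 5 library measures) were examined for a sample far from the others, by Dixon's ratio of the gap to the range. Chance flags about 1 in 20 such groups, and 2 values were flagged, both in Tough 1. *MYOD1* was at 10.9 FPKM in Tough 1, a gap of 0.699 of the range, with the next loin at 4.42 FPKM. *ID3* was at 15.9 FPKM in Tough 1, a gap of 0.776 of the range, with the next loin at 8.29 FPKM. The sets of 3 loins were too small for this test.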

How the results depend on the processing

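No paired analysis was possible because the sets share no animal number. Beside the 1 gene called between the sets, 0 were called with a pseudocount of 0.1 FPKM, median-of-ratios scaling, quantile normalization or an adjusted p of at most 0.05 with no fold minimum, 4 by the 50% rule, 21 by the 90% rule, 6 by the highest transcript, 13 without Tough 2 and Tough 3, 5 without Tough 1 and Tough 6 (added after seeing the data), and 1 to 15 leaving out 1 loin. *CNTF* was not among those called by the 50% rule, the 90% rule or the highest transcript, where it was not tested, with no filter (the 1 call was *GDPGP1*), without Tough 3, without Tough 6, without Tough 2 and Tough 3, or without Tough 1 and Tough 6. The 169 genes at a p of at most 0.05 became 296 with no filter, 408 without Tough 2 and Tough 3, and 125 to 613 leaving out 1 loin, the most without Tough 2. Along shear force the 522 became 229 with the breeding value, 300 without Tough 1 and Tough 6, and 244 to 668 leaving out 1 loin, fewest without Tough 1; 0 were called throughout. Quantile normalization split the 184 genes between sets 95 higher and 89 lower.

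Of 75 genes, 14 reversed somewhere, and the cause was not tested. By the 50% rule *CIDEA* was 1.16, *TUSC5* 0.75 and *ZFP91* -0.23, and by the 90% rule *CIDEA* 1.06, *DDIT4* -1.24, *IST1* 1.57 and the log2 difference of PKM -1.18. By the highest transcript *CAMK2G* was 0.10 and *CIDEA* 1.37. Over the exon bases assembled in all 6 libraries *C1H18orf25* was -0.062, and with median-of-ratios scaling on top *C1H18orf25* -0.13, *MAGEF1* -0.066 and *RNF166* -0.051. Leaving out 1 loin gave *ZFP91* -0.11 (without Tough 2) to 0.31. Without Tough 1 and Tough 6 the slopes of *ACTN2*, *ANGPTL4*, *COL6A3* and *TIMP1* were -0.045, -0.011, -0.0037 and -0.044. Of the list medians under alternatives, 34 moved by more than the spread between loins and 932 did not. Depth limits genes near 0.5 FPKM.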
